A study of Oryctolagus cuniculus with 2 samples.

Results

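The microglia module score is a number that the authors gave to each retinal nucleus, and it stands beside 8 other module scores for retinal cell types in their cell annotation. It was described here over all 6542 nuclei that have it, by the authors' cell type, cluster and library. A score of 0.1 was taken as the limit, and 44 of the 6542 nuclei (0.673%, exact 95% interval 0.489 to 0.902) lay above it. The limit is not the authors' and was chosen with earlier results of these data known. The nuclei came from rabbit retina, from a 5 mm punch listed with a visual streak offset of 2 to 3 mm in both libraries. The visual streak is the band of highest cell density in the rabbit eye. One library pooled 3 wild-type rabbits and the other pooled 3 CLRN1 knockout rabbits, all aged 10 months and listed with no other treatment. CLRN1 encodes clarin-1, a membrane protein that is mutated in a human disorder of combined hearing and sight loss, Usher syndrome. The wild-type library held 3484 nuclei and 6916018 UMIs (unique molecular identifiers, 1 per captured RNA molecule), and the knockout library held 3058 nuclei and 8233524 UMIs.

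Per the labels, nuclei were assigned to single animals from their sequence variants, but that assignment was not analysed here. Each genotype was therefore treated as 1 library with no test between genotypes, and genotype and library cannot be told apart. Every interval of a share or rate below is an exact 95% interval (Clopper-Pearson for shares, Poisson for rates) that covers counting error only. Intervals of medians are 95% intervals from the ranked values of the nuclei and cover only the spread between nuclei of 1 library. Values are said to be apart where these intervals do not overlap. The libraries shared 5 cell barcodes, and 1 of the 44 nuclei above the limit, a wild-type nucleus, carried one of them.

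Microglia are the resident immune cells of the central nervous system. In the retina they sit mainly in the synaptic layers, survey the tissue with moving processes and take up debris, and they are known to enter the photoreceptor layer when photoreceptors die. None of the authors' 7 cell types (rods, cones, bipolar, horizontal, amacrine and retinal ganglion cells and Müller glia) is microglia, so the score is the only field in the annotation that speaks of them. A module score is the mean log-normalised expression of a list of genes minus that of control genes picked for a similar overall level. The listed genes are not named in the sources used here, so the label could be checked against the other scores but not against marker genes.

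The score took few values. It was exactly 0 in 3483 nuclei (53.2%), below 0 in 3006 (45.9%) and above 0 in 53 (0.810%). The lowest score was −0.0312 and the highest 1.28, and no nucleus lay between 0 and 0.0589. These values fell on a grid. With the log-normalised expression of 1 gene taken as ln(1 + 10000 × its UMIs / all UMIs of the nucleus), each of the 53 positive scores was the sum over listed genes divided by 7 minus the sum over control genes divided by 648, within 1e-11 of a whole number of genes at each UMI count. Each of the 53 had 1 such solution. Read as 1 UMI of 1 listed gene less control genes with 1 UMI each, 39 of the 53 gave whole steps at a list size of 7, and none did at any other size up to 50. A list of a multiple of 7 genes would give the same scores if, in every positive nucleus, listed genes came in sets of equal counts. The smallest size was taken, and the counts of listed UMIs below rest on it. The UMIs of the 7 listed genes in each nucleus, termed listed UMIs below, could therefore be read back from the score. The solution does not say which of the 7 genes a UMI came from.

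Listed UMIs were rare. All 6542 nuclei held 75 of them in 15149542 UMIs, or 4.95 per 1000000 UMIs (3.89 to 6.21). Of the 53 nuclei with a positive score, 42 held 1 listed UMI and 11 held 2 or more. Listed UMIs of 2 or more genes were found in 8 nuclei, and of 3 genes in 4 nuclei, all 4 from the knockout library. Among the 44 nuclei above the limit, 33 rested on 1 listed UMI.

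Because the score divides by depth before taking the log, 1 listed UMI gave different scores at different depths. With no control UMI it gives 0.435 at 500 UMIs, 0.343 at 1000 and 0.179 at 4000, and it falls to the limit of 0.1 at 9864 UMIs. The 42 nuclei with 1 listed UMI accordingly ranged from 0.0589 at 18292 UMIs to 0.430 at 518 UMIs. The 9 nuclei with a listed UMI that stayed at or under the limit were all deep, with 9822 to 18292 UMIs, and 4 of them were wild-type. Just inside the limit were a wild-type nucleus of cluster 7 at 0.101 with 8872 UMIs and a knockout nucleus of the same cluster at 0.102 with 9077 UMIs. Just outside were a knockout nucleus of cluster 2 at 0.0981 with 9822 UMIs and a wild-type nucleus of cluster 7 at 0.0849 with 11269 UMIs. All 4 held 1 listed UMI.

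**Figure D1:**
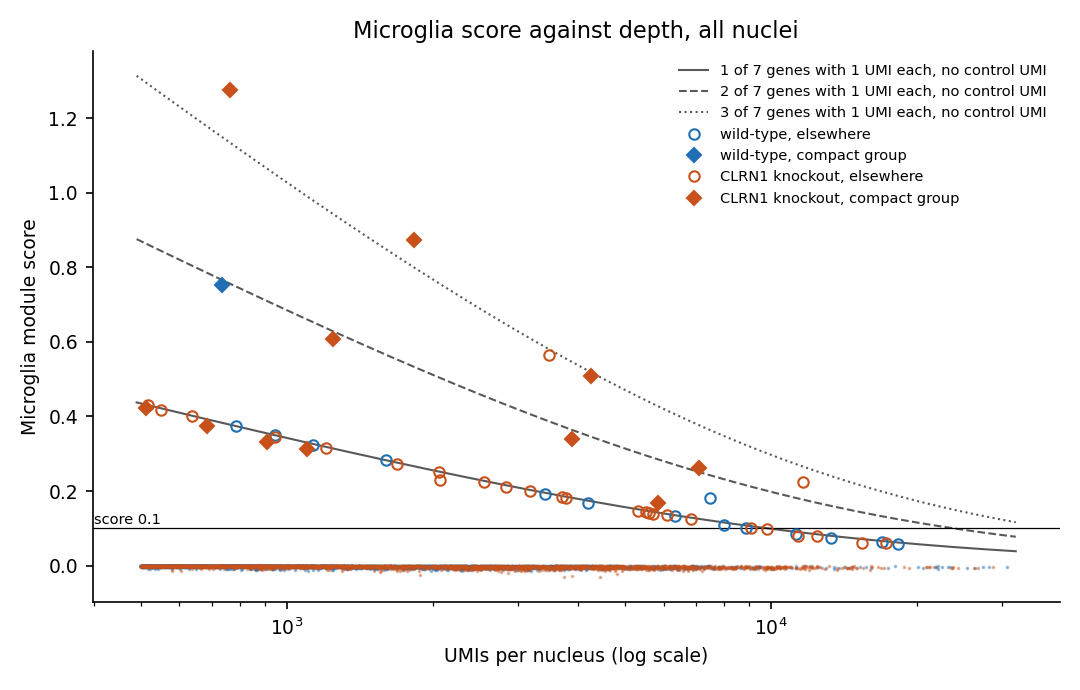
Microglia module score (vertical axis) against UMIs per nucleus (horizontal log axis) for all 6542 nuclei, with wild-type in blue and CLRN1 knockout in orange. Small dots are nuclei without a listed UMI, open circles are nuclei with one outside the compact group of 21 nuclei described in the text, filled diamonds are those in it, and the curves give the score of 1, 2 or 3 of the 7 listed genes with 1 UMI each. Most positive nuclei lie on the lowest curve, which crosses the horizontal line at 0.1 at 9864 UMIs.

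Nuclei above the limit were more frequent in the knockout library. They were 11 of 3484 wild-type nuclei (0.316%, 0.158 to 0.564) and 33 of 3058 knockout nuclei (1.08%, 0.744 to 1.51), a ratio of 3.42, and the intervals were apart. Listed UMIs themselves were found in 15 wild-type nuclei (0.431%, 0.241 to 0.709) and 38 knockout nuclei (1.24%, 0.881 to 1.70). Per 1000000 UMIs they numbered 2.46 in wild-type (1.43 to 3.94) and 7.04 in knockout (5.35 to 9.11), also apart. The knockout nuclei were deeper, with a median of 1552.5 UMIs against 1175.5. Thinned to 499 UMIs, the depth of the shallowest nucleus, the expected share with a listed UMI was 0.102% in wild-type and 0.409% in knockout. Without the wild-type nucleus whose barcode was in both libraries and the other shared barcodes, the log2 ratio of the shares above the limit was 1.91, against 1.77 with them.

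Of the 33 knockout nuclei above the limit, 11 lay in 1 small place. In the authors' planar embedding (a map that places nuclei with similar expression close together), the nucleus with the highest score belonged to a separate set of 21 nuclei, 2 from wild-type and 19 from knockout, centred at 5.11 on the first axis and −4.82 on the second. The set spanned 0.136 by 0.232 units of an embedding that spans 37.2 by 32.7, and its nearest other nucleus was 1.18 units away. It came out the same when nuclei closer than 0.25, 0.5 or 1 unit were joined, and it merged into a set of 3439 nuclei when nuclei closer than 1.5 units were joined. The authors placed 20 of the 21 in cluster 16 and 1 in cluster 3, and labelled all of them rods. This compact group was singled out after its scores were seen, and the listed genes may have shaped the embedding and the clusters, so its share is a description and no test.

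In the compact group 12 of 21 nuclei held a listed UMI (57.1%, 34.0 to 78.2), 1 of the 2 wild-type and 11 of the 19 knockout nuclei, and all 12 lay above the limit. They carried 29 of the 75 listed UMIs, or 601 per 1000000 (402 to 863). The rate was 582 per 1000000 (384 to 847) in the knockout members and 1071 (130 to 3870) in the 2 wild-type members. In all other nuclei it was 3.05 per 1000000 (2.23 to 4.06). The compact group had a median depth of 1692 UMIs, against 2802 in amacrine cells, interneurons of the inner retina, in which 0.389% of nuclei held a listed UMI (0.106 to 0.992). Of the 11 nuclei with 2 or more listed UMIs, 8 were in the compact group.

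The 12 nuclei differed widely. The highest score, 1.28, belonged to a knockout nucleus of 764 UMIs with 3 UMIs of 1 listed gene and 1 UMI of each of 2 others. Next came a knockout nucleus at 0.872 with 1835 UMIs and 4 listed UMIs of 3 genes. The wild-type member scored 0.754 with 735 UMIs and 1 UMI of each of 2 genes, the highest score in its library. These 3 nuclei held under 2000 UMIs each and had UMIs of more than 1 listed gene.

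Further knockout members with listed UMIs of more than 1 gene scored 0.607 at 1249 UMIs (2 genes), 0.508 at 4247 UMIs (3 genes) and 0.339 at 3874 UMIs (2 genes). The 2 deepest of the 12 carried several UMIs of 1 gene each: 5 UMIs at 7095 UMIs gave a score of 0.261, and 2 UMIs at 5831 UMIs gave 0.168. The other 4, with 1 listed UMI each, scored 0.422, 0.375, 0.331 and 0.313 at 512, 686, 911 and 1099 UMIs. The score did not order these nuclei by listed UMIs, since the nucleus with 5 UMIs of 1 gene ranked below all 4 nuclei with a single UMI. The 9 members without a listed UMI scored −0.0312 to −0.00706 at 971 to 4444 UMIs.

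Among their 5 nearest nuclei in the embedding, all 12 positive members had at least 1 positive neighbour (median 3.5), and so did all 9 members without a listed UMI (median 2). The group lies apart from all other nuclei, so its members' nearest nuclei are other members and these counts follow from its makeup. Elsewhere 5 of 41 positive nuclei and 188 of 6480 nuclei without a listed UMI had a positive neighbour.

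**Figure D2:**
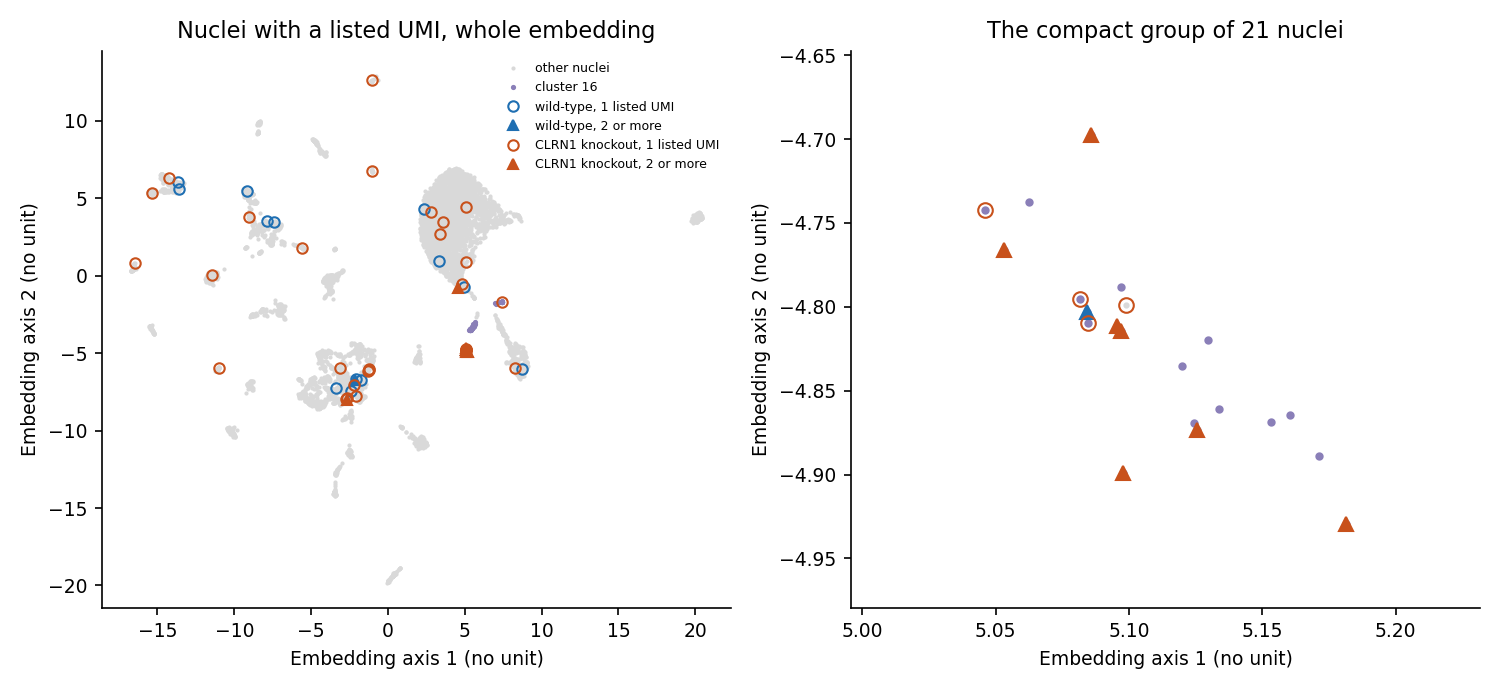
Position of all nuclei in the authors' embedding (left) and an enlarged view of the compact group (right), both axes in embedding units, with nuclei in grey and cluster 16 in purple. Open circles have 1 listed UMI and triangles 2 or more, in blue for wild-type and orange for CLRN1 knockout. The 12 positive nuclei of the compact group sit within 0.136 by 0.232 units. The 41 other positive nuclei lie in several parts of the embedding. Many of them, from clusters 2 and 6, lie between −3.40 and −1.22 on the first axis and −8.04 and −5.96 on the second.

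Cluster 16 as a whole was almost entirely a knockout cluster, with 2 wild-type and 76 knockout nuclei, and the authors label it rods. It held 13 of the 44 nuclei above the limit, 13 of its 78 nuclei (16.7%, 9.18 to 26.8). The 2 wild-type nuclei were both in the compact group. In its other 58 nuclei, all from knockout, 2 lay above the limit (3.45%, 0.420 to 11.9), with 4 listed UMIs or 25.9 per 1000000 (7.06 to 66.3). One of these 2 held 1 UMI of each of 3 listed genes at 3475 UMIs and scored 0.565, the highest score outside the compact group. It lay at 4.58 and −0.79 in the embedding, and its rod score, 1.21, was above its microglia score.

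By label, 33 of the 44 nuclei above the limit were rods, the dim-light photoreceptors that make up most of these libraries, 7 from wild-type and 26 from knockout. That was 75% (59.7 to 86.8), and rods were 65.7% of all nuclei, a share inside this interval. Of these 33, 13 were in cluster 16 and 20 were not. In the rods outside cluster 16 and the compact group, a listed UMI was found in 9 of 2235 wild-type nuclei (0.403%, 0.184 to 0.763) and 17 of 1982 knockout nuclei (0.858%, 0.50 to 1.37). These rods carried 2.79 listed UMIs per 1000000 in wild-type (1.34 to 5.12) and 4.34 in knockout (2.61 to 6.78). Both pairs of intervals overlapped.

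Cones, the photoreceptors of daylight vision, had 1 nucleus above the limit in each library, of 182 wild-type and 123 knockout nuclei. Bipolar cells, which carry photoreceptor signals inward, had none with a listed UMI in 142 wild-type nuclei and 2 in 80 knockout nuclei, 1 of them above the limit. Horizontal cells, which feed back onto photoreceptors, had none in 84 and 1 in 97. Each of these 3 types therefore rested on 1 or 2 nuclei.

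Amacrine cells had 2 nuclei with a listed UMI in each library, of 560 and 469, and all 4 were above the limit. Retinal ganglion cells, the output neurons and the deepest type with a median of 5353.5 UMIs, also had 2 in each library, of 148 and 176, of which 1 wild-type and 2 knockout nuclei were above the limit. Over both libraries the rate was 1.28 per 1000000 UMIs in amacrine cells (0.349 to 3.28) and 2.43 in ganglion cells (0.661 to 6.21). Neither differed between libraries beyond counting error.

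Müller glia, the main supporting glia of the retina, held no listed UMI at all. That was 0 of 185 nuclei, which allows a share of up to 1.62%, with 0 of 131 in wild-type (up to 2.29%) and 0 of 54 in knockout (up to 5.56%). The exact intervals reach further, to 1.97% over both libraries, 2.78% in wild-type and 6.60% in knockout. Their median depth was 2022 UMIs, and their UMIs allow up to 6.78 listed UMIs per 1000000. A rate like those of the amacrine and ganglion cells would lie below that limit, so the count of 0 does not exclude it. The rate of the compact group lay above that limit. Nuclei other than rods, as a whole, had a listed UMI in 0.401% of wild-type (0.130 to 0.933) and 0.801% of knockout nuclei (0.346 to 1.57), and these intervals overlapped.

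**Figure D3:**
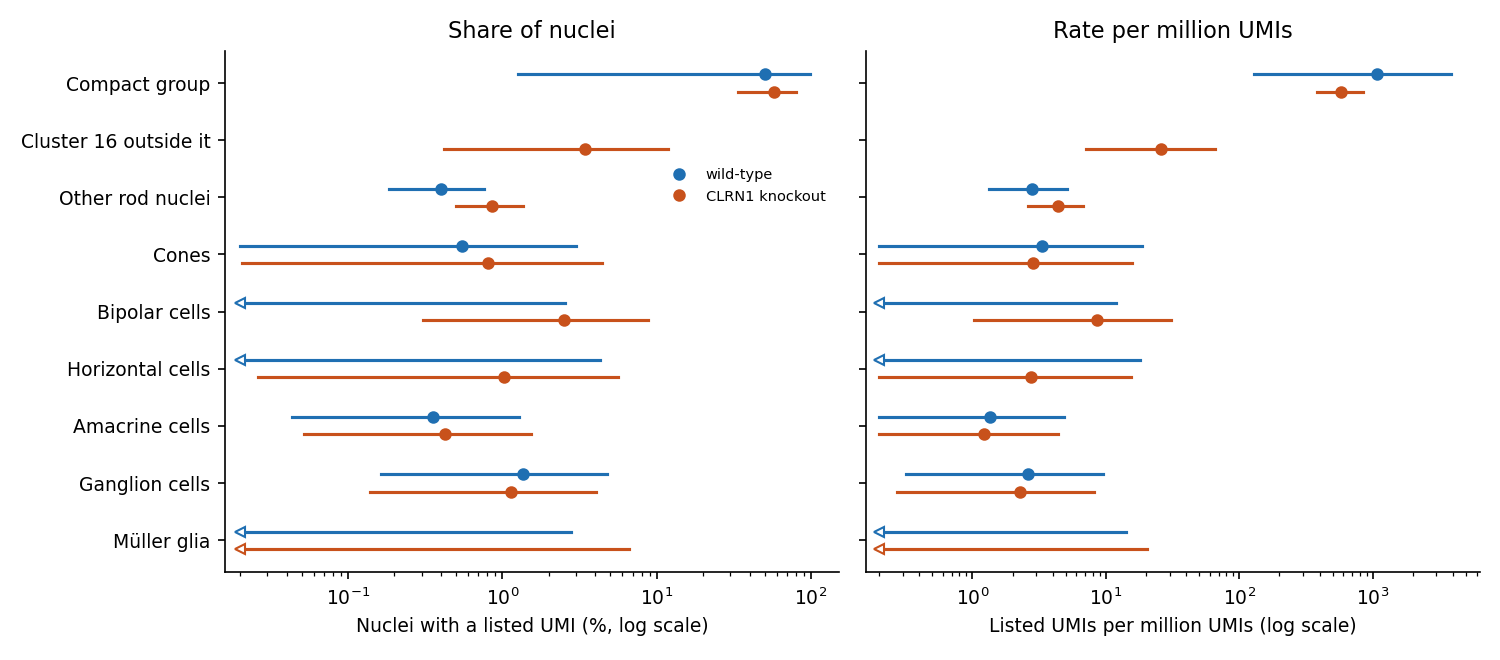
Share of nuclei with a listed UMI (left, percent) and listed UMIs per 1000000 UMIs (right), both on log axes, for the compact group, the rest of cluster 16, the other rods and the other 6 cell types, with wild-type in blue and CLRN1 knockout in orange. Points are the values, bars are exact 95% intervals for counting error, arrowheads at the left edge mark sets at 0, and bars that reach further left are cut there. The compact group stands at 57.9% and 582 per 1000000 in knockout, while no other set exceeds 3.45% or 25.9 per 1000000.

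Outside the compact group 41 of 6521 nuclei held a listed UMI (0.629%, 0.452 to 0.852). These were 14 wild-type (0.402%, 0.220 to 0.674) and 27 knockout nuclei (0.888%, 0.586 to 1.29), and 10 wild-type (0.287%) and 22 knockout nuclei (0.724%) were above the limit. The rate was 2.17 per 1000000 UMIs in wild-type (1.21 to 3.58) and 3.79 in knockout (2.57 to 5.37). All 3 pairs of intervals overlapped, whereas with the compact group included all 3 were apart. Without the group the log2 ratio of the shares above the limit was 1.33, with an exact interval of 0.196 to 2.58. That interval left out 0, so the overlap does not show that the libraries were alike outside the group. Thinned to 499 UMIs, the expected shares outside the group were 0.0759% in wild-type and 0.211% in knockout. Free RNA in droplets can put a UMI into a nucleus that does not express the gene, and no share in a neuronal type is read here as expression. Its part in these shares was not tested.

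By cluster, 13 of the 26 clusters held a nucleus above the limit. After cluster 16 the most were in rod clusters: 7 in cluster 2, 5 in cluster 1, 4 in cluster 0 and 3 in cluster 3, 1 of which is the compact group's member of that cluster. Cluster 7, of ganglion cells, also held 3, clusters 4 and 11 held 2 each, and clusters 5, 6, 10, 22 and 24 held 1 each. Cluster 2 held the most nuclei with a listed UMI, 14 of 813, and 7 of these missed the limit at depths of 9822 UMIs or more. Most of the 14, and the positive nuclei of cluster 6, lay close together in the embedding. They lay between −3.40 and −1.22 on the first axis and −8.04 and −5.96 on the second. The share of all nuclei that lie there was not counted. The other 13 clusters held no listed UMI in 1221 nuclei, which allows a share of up to 0.246%, or 0.980 listed UMIs per 1000000.

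Outside the compact group the positive nuclei were the deep ones. The nuclei above the limit had a median of 3802 UMIs in wild-type and 3329 in knockout, against 1175 and 1546 in the nuclei not above it. Of the 41 nuclei with a listed UMI, 33 (12 of 14 wild-type, 21 of 27 knockout) were deeper than the median of their own cluster and library. The share with a listed UMI was 0.239% under 1000 UMIs, 0.254% from 1000 up to 2000, 0.611% from 2000 up to 4000 and 2.28% at 4000 or more. Per 1000000 UMIs the same bins held 3.33 (1.22 to 7.26), 1.84 (0.501 to 4.71), 2.65 (1.32 to 4.73) and 3.59 (2.32 to 5.30), with every pair of intervals overlapping. In the bin of 4000 or more UMIs the share was 2.53% in wild-type and 2.13% in knockout, and in the bin from 2000 up to 4000 it was 0.132% (1 of 759) and 1.12% (8 of 715).

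In the compact group the positive nuclei were not the deep ones. The 12 had a median of 1174 UMIs (512 to 7095) and the 9 without a listed UMI a median of 1874 (971 to 4444), and 4 of the 12 were deeper than the median of their own cluster and library. Over 1% of UMIs were mitochondrial in 9 of the 21 members (42.9%, 21.8 to 66.0), all from knockout, against 7.77% of all nuclei. The highest mitochondrial share, 12.1%, was in the member of cluster 3. The part of RNA quality in the scores was not tested. Of the 32 nuclei above the limit outside the group, 4 were over 1%.

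The other module scores of the same nuclei were usually higher than the microglia score. Among the 44 nuclei above the limit it was the highest of the 9 scores in 5, all knockout nuclei of the compact group, and the second highest in 20. The rod score was the highest in 21 of the 44, in 7 of 11 from wild-type and 14 of 33 from knockout. Over all nuclei it was the highest in 61.1%, in 59.2% of wild-type and 63.4% of knockout nuclei. Outside cluster 16 the microglia score was the highest in 0 of 31. Being the highest was no sign of a listed UMI either, since over all nuclei it was the highest in 58 (34 wild-type, 24 knockout) and 53 of these, among them all 34 from wild-type, held none: their microglia score was at or just below 0 and the other 8 lay lower.

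Within the compact group the highest score was the microglia score in 7 nuclei, the rod score in 6, the Müller glia score in 5, the general photoreceptor score in 2 and the bipolar score in 1. The median microglia score was 0.26, the median Müller glia score 0.27 and the median rod score 0.15. Cone and ganglion cell scores were above 0 in 0 of 21 members, and amacrine and horizontal scores in 1 each. In the rest of cluster 16 the cone score was above 0 in 5 of 58 nuclei and the ganglion cell score in 35. The amacrine and horizontal scores were above 0 in 1 each there. The Müller glia score was above 0 in 14 of 21, in 10 of the 12 with a listed UMI and in 4 of the 9 without, with medians of 0.38 and −0.18. It was above 0 in 28 of 58 nuclei in the rest of cluster 16 and in 833 of 4218 rods outside cluster 16. In the compact group it reached the lower quartile of the authors' Müller glia, 0.66, in 3 of 21. No single score was the highest in most of the 21, and no cell type name is given to them here.

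**Figure D4:**
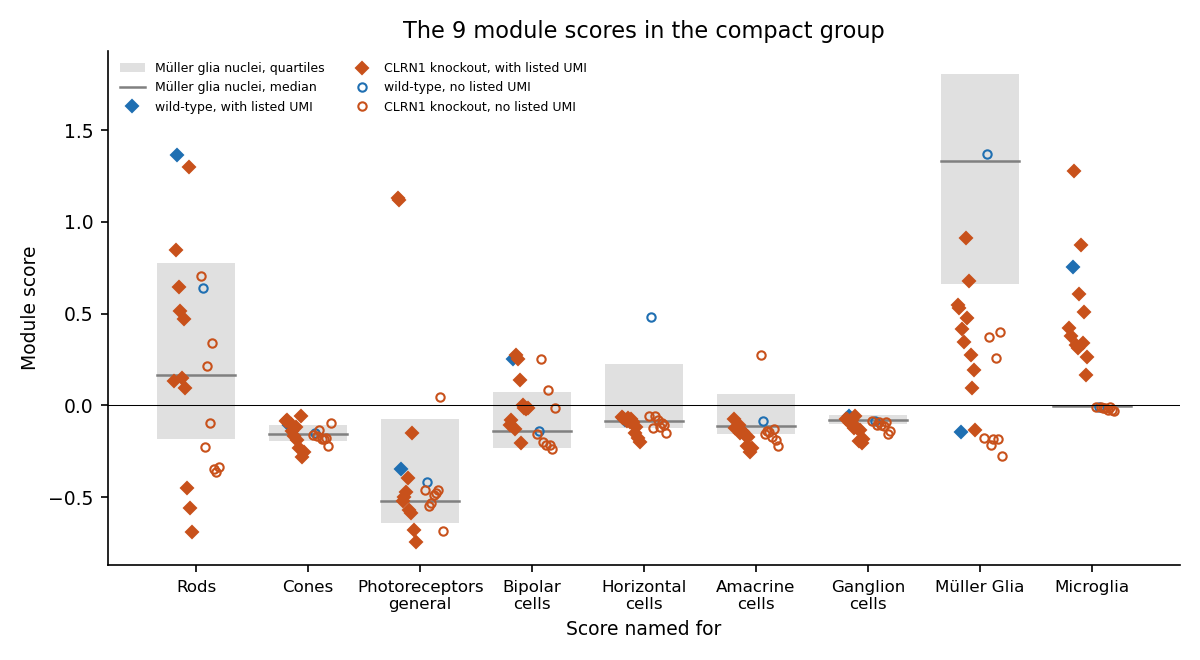
The 9 module scores (one column each, score on the vertical axis) of the 21 nuclei of the compact group, wild-type in blue and CLRN1 knockout in orange, with filled diamonds for a listed UMI and open circles for none. Grey boxes and lines give the quartiles and median of the authors' Müller glia. Microglia, Müller glia and rod scores spread over positive values, while cone and ganglion cell scores are below 0 in all 21.

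Scores below 0 came from the control genes alone. A nucleus without a listed UMI scored 0 when it held no control UMI and below 0 when it held any, by an amount that also depends on depth. The share at exactly 0 fell with depth, from 81.3% of wild-type and 79.5% of knockout nuclei under 1000 UMIs to 8.99% and 6.50% at 4000 or more. The median score by type followed the same arithmetic and lay between −0.00428 and 0. In amacrine cells the medians were −0.00240 in wild-type and −0.00386 in knockout, a difference (knockout minus wild-type) of −0.00146 with intervals of the medians apart. Horizontal cells, at −0.00248 and −0.00398, were the other type with intervals apart, and in rods both medians were 0. These shifts were far smaller than the step that 1 listed UMI makes.

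The control UMIs, recovered in the same way, were themselves unevenly spread. They numbered 44.8 per 10000 UMIs in the compact group (39.0 to 51.1), 16.4 in the rest of cluster 16 (14.4 to 18.5) and 4.31 in all other nuclei. Over both libraries the other 25 clusters ranged from 2.53 in cluster 0 to 6.93 in cluster 24. Outside cluster 16 and the compact group the rate was 4.0 in wild-type (3.86 to 4.16) and 4.58 in knockout (4.43 to 4.73), which were apart. It was higher in knockout in 21 of the 25 clusters, with intervals apart in clusters 13 and 24, and lower in clusters 4, 9, 10 and 14, with none apart. Control genes are subtracted, and the lowest score of all nuclei, −0.0312, was that of a knockout member of the compact group. The compact group and the rest of cluster 16 thus stood above all other nuclei in control UMIs, with intervals apart. Listed UMIs numbered 2.81 per 1000000 UMIs in the other nuclei (2.03 to 3.80), below the intervals of both sets. The compact group was found through the highest score, so its listed rate is a description and no test. In the rest of cluster 16 the listed rate rested on 4 UMIs in 2 of 58 nuclei, 3 of them in 1 nucleus. By share of nuclei its interval (3.45%, 0.420 to 11.9) overlapped that of the other nuclei (0.603%, 0.429 to 0.824).

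**Figure D5:**
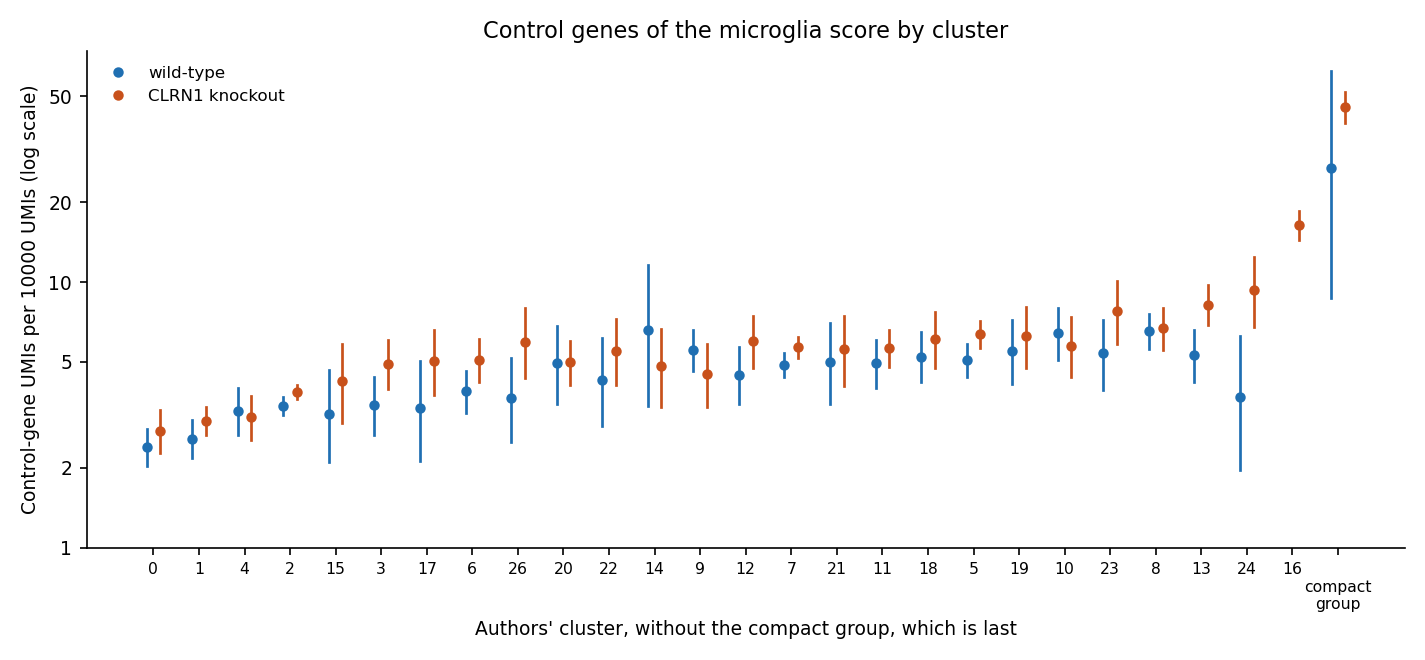
Control-gene UMIs per 10000 UMIs (vertical log axis) by the authors' cluster, ordered by rate, with the compact group last and taken out of its clusters, wild-type in blue and CLRN1 knockout in orange. Points are rates and bars exact 95% intervals for counting error; cluster 16 outside the compact group is knockout only, and the points of both it and the compact group lie above those of the other clusters, which run from 2.39 to 9.32, while the interval of the 2 wild-type nuclei of the compact group reaches down to 8.70.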

How the data were processed

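Nuclei of pooled rabbit retinas were profiled by droplet sequencing of polyA RNA, and the members, limit and cell sets below were chosen with earlier results of these data known. The submitters' processing notes name the build OryCun2.0 and the tools DESeq2 1.38.0, Seurat 4.3.0 and Cell Ranger 7.0, without roles. From the annotation the authors deposited, the UMI count and gene count per nucleus, the percent of mitochondrial UMIs, the 9 module scores, cell types, clusters and embedding were used as given. The score unit is a difference of mean log-normalised expression, as its values show. The deposited count matrix was not used. Replicate animals within each pool were not analysed here.

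Listed and control UMIs were recovered from the scores with Python 3.11.15, NumPy 2.4.6, pandas 2.3.3 and SciPy 1.17.1. All 53 nuclei above 0 and 3003 of the 3006 below 0 had 1 solution, and in the other 3 the one with fewest UMIs was taken. On 200 simulated scores the solution with fewest UMIs was the true one in all 200, and 161 had 1 solution. The simulated scores held fewer control UMIs than the 22, 36 and 38 of 3 positive compact-group nuclei. They also held fewer UMIs per listed gene than the 5 found in 1 of these, so the simulation did not cover such nuclei. Nor did it cover the compact-group members without a listed UMI that held 21 and 25 control UMIs. In the rest of cluster 16 the highest count, 27 control UMIs, was not covered either. The control rates of both sets include such nuclei. Nuclei were joined at 0.5 embedding units. Thinning to 499 UMIs used the hypergeometric expectation. A share of 0 was given the limit that 3 counts allow. No nucleus was filtered and no doublet caller was run. Cell types, clusters with a nucleus above 0.1 and the 9 scores are named. No gene is named as a result. Single nuclei are described where highest in their library, nearest the limit, or in an embedding part of their own.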

Additional observations from a re-analysis of the deposited data

How the results depend on the processing

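The log2 ratio of the shares above 0.1, knockout to wild-type, was 1.77, with an exact interval of 0.753 to 2.91. The values of 15 of 17 alternatives lay inside this wide interval. They draw on many of the same nuclei, so this does not show that the size was kept. The ratio reversed to −0.31 when nuclei whose microglia score was the highest of the 9 were counted (34 wild-type, 24 knockout). It rose to 3.00 for UMIs of 2 or more listed genes (1 wild-type, 7 knockout nuclei). The intervals of the shares overlapped in both. A limit of 0.05 and 1 or more listed UMIs selected the same nuclei, since no score lay between 0 and 0.0589. Each is counted among the alternatives, although they are 1 result. The intervals were apart in 6 of the 14 alternatives that have them. They also overlapped at a limit of 0.3, at 2000 or more UMIs, for 2 or more listed UMIs, without cluster 16 (1.29), without the compact group (1.33) and in nuclei other than rods (1.13). The exact interval of the ratio lay above 0 at a limit of 0.3 (0.445 to 4.14) and at 2000 or more UMIs (0.112 to 3.09). So did those without cluster 16 (0.144 to 2.54) and without the compact group (0.196 to 2.58). For 2 or more listed UMIs it was 0.0856 to 5.61, and for 2 or more listed genes 0.035 to 8.49. It included 0 in nuclei other than rods (−0.849 to 3.35) and where the microglia score was the highest (−1.13 to 0.482). Listed UMIs per 1000000 UMIs without the compact group gave 0.80. Cluster 16 held 29.5% of the nuclei above 0.1 and 52.6% of those above 0.3. Müller glia held none, which no alternative could change, since none of their nuclei scored above 0. The share whose microglia score was the highest, 11.4%, ranged from 5.71% to 21.1%. The difference of the medians, −0.000297 in ganglion cells and 0 in rods, became −0.00159 and −2.8e-05 within depth bins and −0.00139 and −0.00143 at 1000 or more UMIs. The cause was not tested. Alternatives based on listed UMIs, the compact group and shared barcodes were chosen after seeing the data. No paired analysis was possible because each genotype was treated as 1 pooled library. Depth sets what a count of 0 shows: the 185 Müller glia nuclei allow up to 6.78 listed UMIs per 1000000 UMIs.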
